A study of Mus musculus with 12 samples.

Results

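The unfolded protein response genes were taken by name: 33 genes for chaperones of the endoplasmic reticulum (ER), for ER-associated degradation, and for the 3 stress sensors with their targets. All 33 were found among the 17536 genes of the deposited table, and 32 passed the filter on low counts that left 13489 genes for testing. The exception was Derl3, a Derlin of the degradation machinery, with 1 to 8 counts in a library. RNA came from whole hearts of ICR mice, an outbred stock, aged 10 weeks in every group. The control group had no listed agent, and the busulfan group received busulfan, an alkylating chemotherapy drug, at 20 mg/kg. The control-FMT group is labelled B+Con-FMT. The AOS-FMT group is labelled B+AOS-FMT with 10 mg/kg written after AOS. The B of both is read here as busulfan, and no busulfan dose is written for either FMT group. Each group held 3 libraries, 12 in all, and the stated aim was to explore FMT in hearts damaged by busulfan. The labels number the replicates without saying that they were separate animals, so a p-value here reflects variation among samples that can be partly technical.

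The ER folds secreted and membrane proteins with chaperones such as BiP, the product of Hspa5, and with protein disulfide isomerases. When unfolded proteins accumulate, the sensors IRE1 (Ern1), ATF6 and PERK (Eif2ak3) signal to the nucleus: IRE1 splices Xbp1 mRNA, ATF6 is cut to release a transcription factor, and PERK phosphorylates eIF2 so that ATF4 is translated. XBP1 and ATF6 act on chaperone and degradation genes through ER stress response elements, and ATF4 acts on Ddit3, Trib3, Chac1, Asns and Ppp1r15a. Gene counts do not measure Xbp1 splicing, ATF6 cleavage or phosphorylation of eIF2.

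Library totals lay between 11333650 and 14335688 estimated counts, and the 33 genes took 0.284% to 0.351% of them. The 11 cardiomyocyte markers summed to 87079 to 128800 CPM (counts relative to library size, scaled by the TMM method) in control, 117739 to 141350 in busulfan, 105189 to 109475 in control-FMT and 78227 to 103315 in AOS-FMT. The summed CPM of 4 atrial markers ranged from 546 to 5985 in control, from 8.18 to 882 in busulfan, from 14.2 to 1255 in control-FMT and from 874 to 8414 in AOS-FMT. The 10 fibroblast markers summed to 5288 to 8700 CPM in control, 3792 to 5169 in busulfan, 4635 to 5572 in control-FMT and 5226 to 10098 in AOS-FMT. The 13 hepatocyte markers summed to 61.0 to 159 CPM in control, 63.4 to 93.5 in busulfan, 72.3 to 110 in control-FMT and 132 to 822 in AOS-FMT. The liver score used as a covariate, the mean log2 CPM of 5 of them, separated control (-1.38 to -0.496) from busulfan (1.44 to 1.65). The 10 macrophage markers summed to 809 to 1131 CPM in control, 527 to 755 in busulfan, 636 to 1179 in control-FMT and 825 to 1189 in AOS-FMT. Plasma-cell markers, of cells rich in ER, summed to 16.2 to 27.4 CPM over 7 genes in all 12 libraries. No marker of these lists was at 0 in every library, and none of the cardiomyocyte, atrial, fibroblast, hepatocyte, macrophage or plasma-cell markers was called in any comparison. In bulk tissue, fewer cells of a type and less RNA per cell cannot be told apart.

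Several folding genes were lower in the busulfan hearts than in control and higher in AOS-FMT than in busulfan, by differences of 0.45 or less on the log2 scale, and edgeR's quasi-likelihood test across all genes called none of them. Manf, Pdia6, Xbp1, Dnajc3, Pdia3 and Pdia4 were the members lower in busulfan at an unadjusted p under 0.05 in that test. The members higher in AOS-FMT than in busulfan at that level were Pdia6, Manf, Pdia3, Xbp1, Edem1, Dnajc3, Pdia4 and Ppp1r15a. Of all genes, 5.78% were lower in the first comparison at that level and 7.80% were higher in the second. Both comparisons use the 3 busulfan libraries, so their values for the members are not independent. A call needed a p under 0.05 after Benjamini-Hochberg adjustment over all tested genes, and edgeR called no member in any of the 6 comparisons. DESeq2 called Manf, Pdia6 and Xbp1 in busulfan against control, beside 0.902% of all genes. It called Pdia6 in AOS-FMT against busulfan, beside 0.826%.

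**Figure D1:**
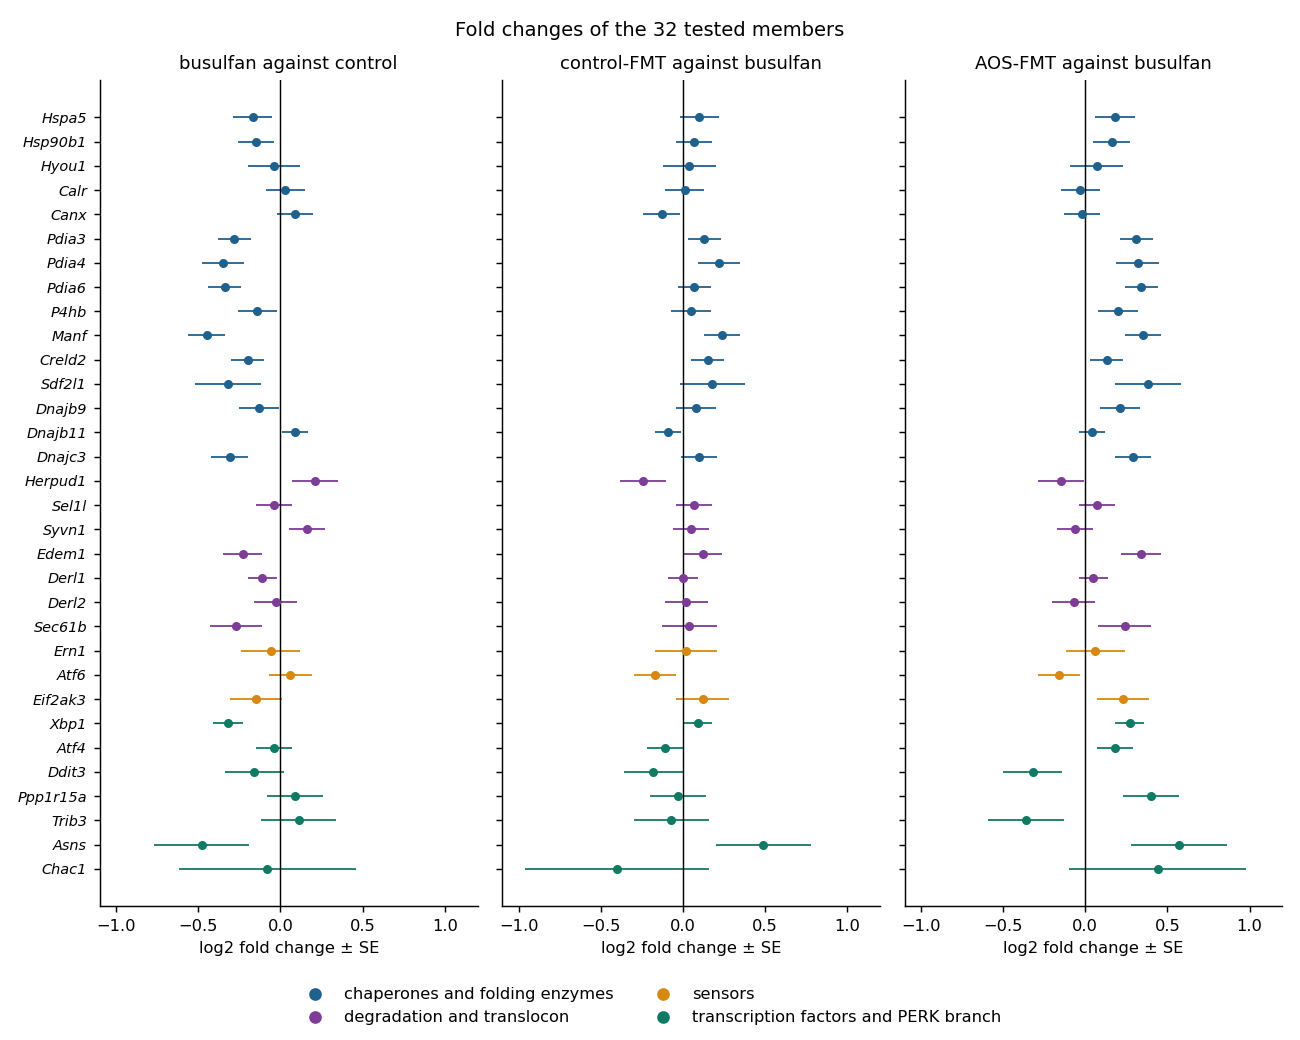
Log2 fold change with its standard error for the 32 tested members, ordered and coloured by role, in busulfan against control, control-FMT against busulfan, and AOS-FMT against busulfan. Folding enzymes such as Manf and Pdia6 lie left of 0 in the first panel (-0.45 and -0.34) and right of 0 in the third (0.35 and 0.34), while Herpud1, Trib3 and Ddit3 lie left of 0 in the third.

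Levels per transcript length, in the deposited TPM, spanned a wide range. Hspa5 had the highest mean in control, 245 ± 46.9 TPM (SD, n = 3), followed by Calr, an ER calcium-binding chaperone of glycoproteins, at 235 ± 47.8 TPM. The order of these neighbours differed between groups. Calr had the higher mean in busulfan (251 against 229 TPM) and control-FMT (270 against 262 TPM), and Hspa5 in AOS-FMT (281 against 266 TPM). Hsp90b1, the ER form of the HSP90 chaperone, had 164 ± 36.5 TPM, and Herpud1, a membrane protein of the degradation complex, had 124 ± 17.0 TPM. Manf, a secreted and ER-resident factor, and P4hb, the archetypal protein disulfide isomerase, followed at 123 ± 13.9 and 120 ± 27.8 TPM. The means of Herpud1, Manf and P4hb differed by less than the SD of any of them. The sensors were lower: Atf6 had 20.0 ± 6.71 TPM, Eif2ak3 had 4.43 ± 1.81 TPM and Ern1 had 2.26 ± 0.794 TPM. Of the PERK branch, Atf4 had 79.1 ± 4.94 TPM and Ddit3, which encodes CHOP, had 41.0 ± 8.61 TPM. Chac1, a glutathione-degrading enzyme, had 2.62 ± 0.966 TPM and Asns, asparagine synthetase, had 2.06 ± 0.803 TPM. Derl3 was lowest at 0.287 ± 0.217 TPM.

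**Figure D2:**
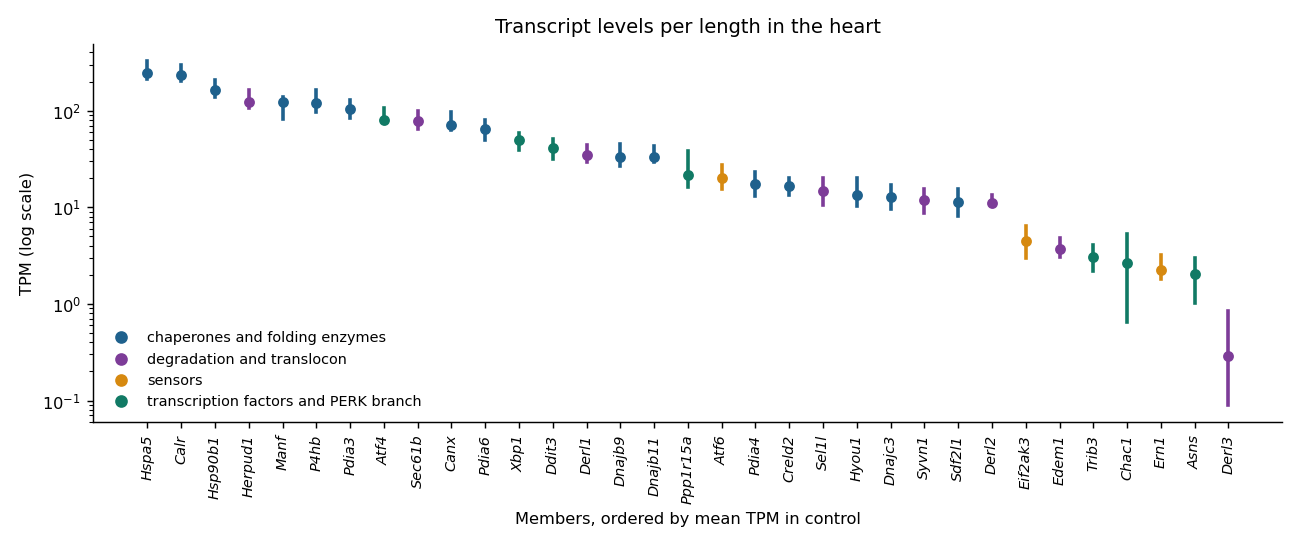
Deposited TPM of the 33 genes on a log axis, ordered by the mean in control (points); each line runs from the lowest to the highest of the 12 libraries, and colour gives the role. The order runs from Hspa5 at 245 TPM to Derl3 at 0.287 TPM, with the sensors Eif2ak3 and Ern1 among the 7 lowest.

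Promoter sequences were available for 29 of the 33 genes in a RefSeq table of GRCm38.p6, each 300 bases long from 250 before to 50 after the annotated start; Manf, Hyou1, Derl1 and Atf6 were not among them. The ER stress response element, searched on both strands as CCAAT, 9 bases and CCACG, was in 0.119% of the 32851 promoters of the table and in those of 9 members: Hspa5, Hsp90b1, Calr, Canx, Pdia6, Creld2, Dnajc3, Syvn1 and Derl3. Its second form, searched as ATTGG, 1 base and CCACG, was in 0.0365% of promoters and in those of Herpud1 and Dnajb11. The XBP1 and ATF6 core TGACGTG was in 2.01% of promoters, and among the members in that of Hspa5. A composite element of the ATF4 type, TTGCATCA, was in 0.895% of promoters and in those of Chac1 and Herpud1. A match describes letters and shows no binding, and the searches share CCACG and its reverse complement, but no printed match of 2 motifs overlaps. Only exact letters were searched, so a promoter without a match may still hold a variant of an element. The 150 bases from 170 to 21 before the start are shown for Hspa5, the standard target, and for 4 members that were lower in busulfan at an unadjusted p under 0.05, Pdia6 and Dnajc3 with the element and Pdia3 and Xbp1 without a match to any of the 4 motifs. They read 5′ to 3′ on the gene's strand, and capitals mark the motif, or the 2 outer parts of the ER stress response element.
Hspa5: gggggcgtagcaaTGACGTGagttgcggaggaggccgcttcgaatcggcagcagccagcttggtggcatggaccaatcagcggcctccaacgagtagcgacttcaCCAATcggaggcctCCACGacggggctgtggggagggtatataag
Pdia6: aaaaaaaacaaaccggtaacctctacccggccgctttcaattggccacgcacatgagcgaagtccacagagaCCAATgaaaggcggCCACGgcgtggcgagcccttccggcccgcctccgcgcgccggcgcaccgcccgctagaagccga
Dnajc3: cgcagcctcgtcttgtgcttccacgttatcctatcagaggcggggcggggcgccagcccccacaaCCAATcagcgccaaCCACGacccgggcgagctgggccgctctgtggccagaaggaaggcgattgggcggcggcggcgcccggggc
Pdia3: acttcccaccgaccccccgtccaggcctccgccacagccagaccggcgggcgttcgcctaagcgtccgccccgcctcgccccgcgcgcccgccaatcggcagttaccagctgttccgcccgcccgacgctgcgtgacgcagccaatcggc
Xbp1: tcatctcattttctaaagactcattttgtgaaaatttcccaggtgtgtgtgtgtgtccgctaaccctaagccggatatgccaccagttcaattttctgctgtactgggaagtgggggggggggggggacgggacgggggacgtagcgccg

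These windows lie on the plus strand of GRCm38.p6 at chr2:34771920-34772069 for Hspa5, chr12:17266419-17266568 for Pdia6, chr14:118937762-118937911 for Dnajc3, chr2:121413732-121413881 for Pdia3 and chr11:5520471-5520620 for Xbp1. In Hspa5 the element spans bases -65 to -47 from the start and the TGACGTG core spans -157 to -151. The element spans -98 to -80 in Pdia6 and -105 to -87 in Dnajc3.

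Of the 15 chaperones and folding enzymes, 12 had a log2 fold change below 0 in busulfan against control, as did 52.3% of all genes. In AOS-FMT against busulfan 13 had one above 0, as did 50.7% of all genes. Their medians were -0.17 and 0.20, beside -0.01 and 0.00 for all genes. Of 30 tested further chaperones and disulfide enzymes, 22 lay below 0 in the first comparison and 20 above 0 in the second. Hspa5 (NCBI gene 14828, chr2:34772090-34776529) had 489, 499 and 459 CPM in control, 453, 396 and 439 in busulfan, 444, 502 and 437 in control-FMT, and 561, 464 and 433 in AOS-FMT. All 3 busulfan libraries lay below all 3 controls, while AOS-FMT overlapped both. The log2 fold change was -0.17 ± 0.12 (SE) in busulfan against control (edgeR adjusted p = 0.659) and 0.18 ± 0.12 in AOS-FMT against busulfan (adjusted p = 0.511). The gene's span overlaps that of Rabepk, and whether counting used strand is not given in the sources used here, so shared reads may not be told apart.

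Manf had 67.7, 59.8 and 59.7 CPM in control, 52.2, 40.6 and 43.7 in busulfan, 49.9, 55.8 and 55.0 in control-FMT, and 60.6, 61.7 and 51.9 in AOS-FMT. The busulfan libraries lay below the controls, and 1 AOS-FMT library, replicate 3, lay within the busulfan range. Manf was at -0.45 ± 0.11 in busulfan against control, the smallest p of the members in that comparison (edgeR adjusted p = 0.246). With the log2 level of liver markers as a covariate it was at -0.28. In AOS-FMT against busulfan it was at 0.35 ± 0.11 (adjusted p = 0.296).

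Pdia6, a protein disulfide isomerase, had 101, 107 and 107 CPM in control, 88.2, 77.5 and 82.4 in busulfan, 87.5, 84.2 and 89.5 in control-FMT, and 98.9, 116 and 99.1 in AOS-FMT. The busulfan libraries and the control-FMT libraries lay below every control and every AOS-FMT library. Pdia6 was at -0.34 ± 0.10 in busulfan against control (edgeR adjusted p = 0.292) and at 0.34 ± 0.10 in AOS-FMT against busulfan (0.279). In AOS-FMT against control-FMT it was at 0.27 ± 0.10 (0.752), and at 0.16 with the summed atrial markers as a covariate. In control-FMT against control it was at -0.27 ± 0.10 (0.476), and at -0.18 with that covariate. Its span overlaps Atp6v1c2, and the same limit on strand applies.

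Pdia3, the disulfide isomerase that works with calnexin and calreticulin, had 197, 212 and 224 CPM in control, 171, 183 and 168 in busulfan, 183, 197 and 193 in control-FMT, and 211, 237 and 200 in AOS-FMT. Busulfan lay below control and below AOS-FMT without overlap. Pdia3 was at -0.28 ± 0.10 in busulfan against control (edgeR adjusted p = 0.351) and at 0.31 ± 0.10 in AOS-FMT against busulfan (0.296). The latter was 0.18 with the log2 level of fibroblast markers as a covariate. That level separated busulfan from AOS-FMT, so fibroblast markers and treatment cannot be told apart there. The span overlaps Catsper2.

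Dnajc3, an ER co-chaperone also known as an inhibitor of PERK, had 47.3, 61.3 and 52.7 CPM in control, 45.1, 41.5 and 43.7 in busulfan, 46.4, 47.9 and 45.1 in control-FMT, and 57.4, 51.7 and 49.8 in AOS-FMT. The busulfan libraries were again the lowest, against both control and AOS-FMT. It was at -0.31 ± 0.11 in busulfan against control (edgeR adjusted p = 0.341), and at -0.20 without control replicate 2, the highest library. In AOS-FMT against busulfan it was at 0.29 ± 0.11 (0.305). Pdia4, a further disulfide isomerase, was at -0.35 ± 0.13 and 0.32 ± 0.13 in the same comparisons (0.355 and 0.315).

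The other chaperones were closer to 0 or had larger standard errors. Hsp90b1 was at -0.15 ± 0.11 in busulfan against control and 0.16 ± 0.11 in AOS-FMT against busulfan, and P4hb at -0.14 ± 0.12 and 0.20 ± 0.12. Creld2, an ER-stress-induced secreted protein, was at -0.20 ± 0.10 and 0.13 ± 0.10, and Dnajb9, a co-chaperone that represses IRE1, at -0.13 ± 0.12 and 0.21 ± 0.12. Hyou1, a large chaperone and exchange factor of BiP, was at -0.04 ± 0.16 and 0.07 ± 0.16. Calr was at 0.03 ± 0.12 in busulfan against control and Canx, the membrane-bound partner of calreticulin, at 0.09 ± 0.11. Dnajb11, a BiP co-chaperone, went from 49.9 ± 0.786 CPM in the controls to 53.1 ± 0.954 CPM with busulfan (SD, n = 3 each), without overlap, at 0.09 ± 0.08 (edgeR adjusted p = 0.720). Canx and Dnajb11 were the members higher in busulfan without overlap. Sdf2l1, which acts with the DNAJB11 co-chaperone, was at -0.32 ± 0.20 in busulfan against control and at 0.38 ± 0.20 in AOS-FMT against busulfan, on counts of 64 to 154 a library.

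**Figure D3:**
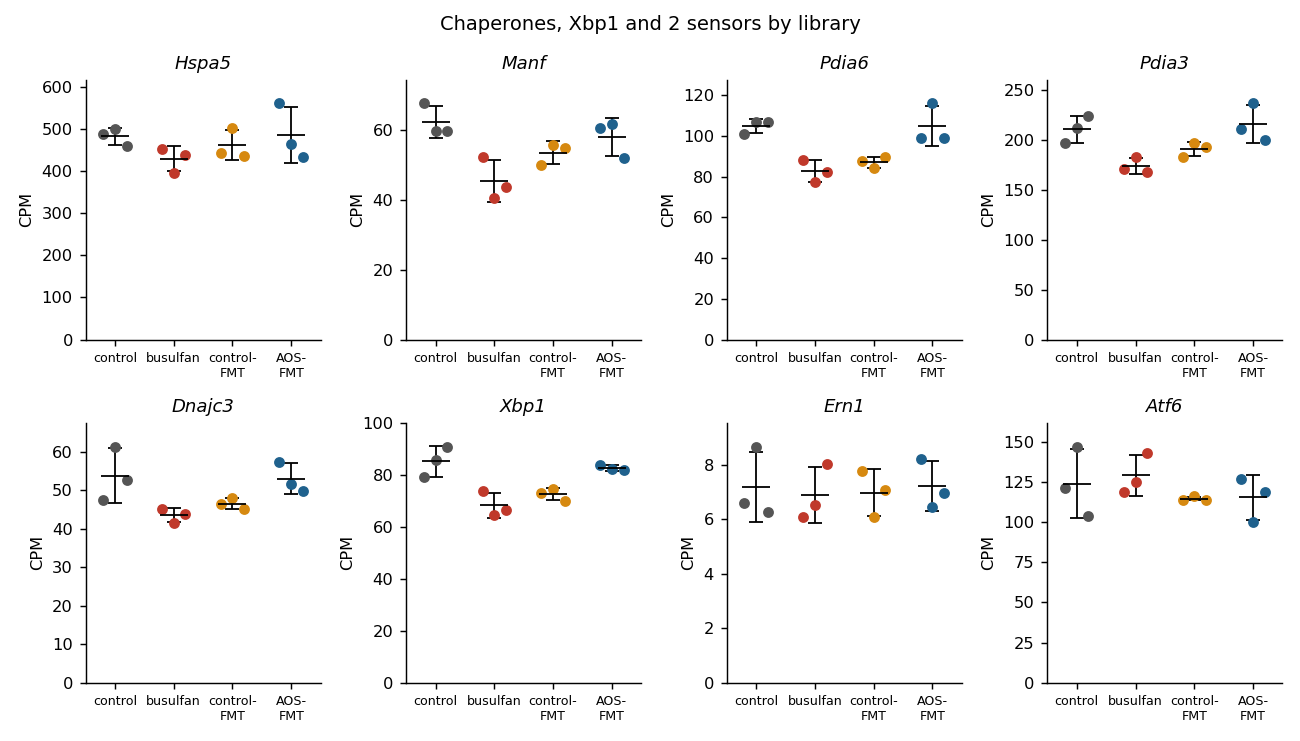
TMM-scaled CPM of 5 chaperones and folding enzymes, Xbp1 and the sensors Ern1 and Atf6, with 1 point per library and the mean with its SD (n = 3) per group. In Manf, Pdia6, Pdia3, Dnajc3 and Xbp1 the 3 busulfan points lie below the 3 control points, while Ern1 and Atf6 overlap between all groups except control-FMT and busulfan in Atf6.

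The 8 genes for degradation and the translocon, 7 of them tested, had medians of -0.04 in busulfan against control and 0.05 in AOS-FMT against busulfan. Edem1, a lectin that passes misfolded glycoproteins on to degradation, was at -0.23 ± 0.12 in the first (edgeR adjusted p = 0.485) and at 0.34 ± 0.12 in the second (0.296). Its level was 15.4 ± 1.62 CPM in busulfan and 19.4 ± 1.30 CPM in AOS-FMT (SD, n = 3 each), without overlap. Herpud1 ran the other way: it was at 0.21 ± 0.14 in busulfan against control and at -0.15 ± 0.14 in AOS-FMT against busulfan (0.621 and 0.622). Syvn1, the ubiquitin ligase HRD1, was at 0.16 ± 0.11 and -0.06 ± 0.11, and Sel1l, its adaptor, at -0.04 ± 0.11 and 0.07 ± 0.11. Derl1 and Derl2, membrane channel components, were at -0.11 ± 0.09 and -0.03 ± 0.13 in busulfan against control. Sec61b, a translocon subunit, was at -0.27 ± 0.16 there and at 0.24 ± 0.16 in AOS-FMT against busulfan.

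The 3 sensors had no unadjusted p under 0.05 in any comparison. Ern1 had 6.59, 8.66 and 6.27 CPM in control, 6.09, 6.53 and 8.03 in busulfan, 7.76, 6.06 and 7.08 in control-FMT, and 8.22, 6.45 and 6.95 in AOS-FMT. Atf6 had 121, 147 and 104 CPM in control, 119, 125 and 143 in busulfan, 114, 116 and 114 in control-FMT, and 127, 100 and 119 in AOS-FMT. Eif2ak3 had 11.9, 16.5 and 13.8 CPM in control, 10.7, 12.8 and 14.5 in busulfan, 14.0, 13.3 and 14.2 in control-FMT, and 13.7, 17.3 and 13.6 in AOS-FMT. Control overlapped busulfan, and busulfan overlapped AOS-FMT, in each sensor. Over the 6 comparisons their log2 fold changes lay between -0.17 (Atf6 in control-FMT against busulfan) and 0.23 (Eif2ak3 in AOS-FMT against busulfan).

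Xbp1, the transcription factor downstream of IRE1, had 79.2, 85.8 and 91.0 CPM in control, 73.9, 64.5 and 66.7 in busulfan, 73.1, 74.6 and 70.1 in control-FMT, and 83.9, 82.4 and 81.9 in AOS-FMT. Every busulfan and control-FMT library lay below every control and AOS-FMT library. Xbp1 was at -0.32 ± 0.09 in busulfan against control (edgeR adjusted p = 0.292) and at 0.27 ± 0.09 in AOS-FMT against busulfan (0.296). In control-FMT against control it was at -0.23 ± 0.09 (0.517), and in AOS-FMT against control-FMT at 0.19 ± 0.09 (0.797).

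Atf4, the transcription factor of the PERK branch, had 106, 83.9 and 109 CPM in control, 95.8, 102 and 93.4 in busulfan, 90.5, 89.7 and 90.2 in control-FMT, and 116, 99.8 and 115 in AOS-FMT. Control-FMT had the lowest mean and lay below AOS-FMT without overlap, at 0.29 ± 0.11 for AOS-FMT against control-FMT (edgeR adjusted p = 0.763). Ddit3 had 30.9, 16.0 and 21.7 CPM in control, 20.7, 20.5 and 20.1 in busulfan, 17.7, 17.3 and 19.2 in control-FMT, and 15.7, 18.1 and 15.3 in AOS-FMT. Control replicate 1 stood above the rest: AOS-FMT against control was -0.48 ± 0.18 (0.465) with it and -0.21 without it. Over all alternatives the value ran from -0.68 to -0.21. Its lowest edgeR adjusted p, 0.0739, came without control replicate 2, the lowest control. The span of Ddit3 overlaps Mars1 and Mbd6.

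Ppp1r15a, which encodes the GADD34 subunit that dephosphorylates eIF2, had 33.6, 43.8 and 36.9 CPM in control, 34.7, 44.6 and 42.0 in busulfan, 34.0, 35.8 and 49.3 in control-FMT, and 42.6, 61.2 and 56.5 in AOS-FMT. AOS-FMT replicates 2 and 3 were the highest libraries, and replicate 1 lay within the other groups. It was at 0.40 ± 0.17 in AOS-FMT against busulfan (edgeR adjusted p = 0.335), 0.43 ± 0.17 against control-FMT (0.777) and 0.49 ± 0.17 against control (0.416). The second was 0.06 with the log2 level of atrial markers as a covariate and 0.13 with their summed level. The log2 level was 1 to 6.32 in control-FMT and 6.58 to 10.4 in AOS-FMT, so it cannot be told apart from group there. The summed levels of these groups overlapped. The value against control was 0.32 with liver markers, which also separated these 2 groups. Whether atrial tissue in the samples has a part in the difference was not tested beyond these fits. The span overlaps Tulp2.

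Of the ATF4 targets on low counts, Trib3, a pseudokinase, was at 0.11 ± 0.23 in busulfan against control and at -0.36 ± 0.23 in AOS-FMT against busulfan. Asns was at -0.48 ± 0.29 and 0.57 ± 0.29 and Chac1 at -0.08 ± 0.54 and 0.44 ± 0.54. Their lowest libraries had 42, 16 and 8 counts.

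**Figure D4:**
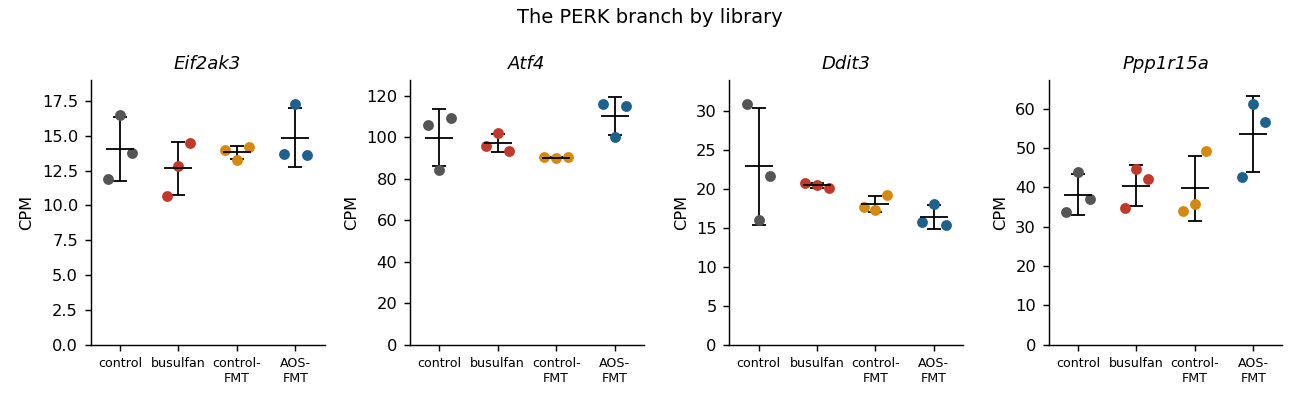
TMM-scaled CPM of the sensor Eif2ak3 and of Atf4, Ddit3 and Ppp1r15a, with 1 point per library and the mean with its SD (n = 3) per group. In Ppp1r15a, 2 of the 3 AOS-FMT libraries, at 61.2 and 56.5 CPM, lie above all others, and in Ddit3 control replicate 1 lies at 30.9 CPM.

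Counts over all members were read beside those over all genes tested. edgeR called 0 of 32 members in each comparison, against 0.0593% of all genes in busulfan against control, 0% in control-FMT against busulfan, 0.0445% in AOS-FMT against busulfan, 0.0297% in AOS-FMT against control-FMT, 0% in control-FMT against control and 0.0815% in AOS-FMT against control. limma-voom also called 0 members in each. DESeq2 called Manf, Pdia6 and Xbp1 lower in busulfan than in control (adjusted p = 0.0377, 0.0277 and 0.0319), where it called 0.902% of all genes, and Pdia6 higher in AOS-FMT than in busulfan (0.0403), where it called 0.826%. Over the alternatives tried, the adjusted p ran up to 0.992 for the first 3 values and up to 1 for the last. In the remaining 4 comparisons DESeq2 called 0 members.

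At an unadjusted p under 0.05 in edgeR, 6 members were lower and 0 higher in busulfan against control, beside 5.78% and 5.54% of all genes, so that the share of the members was 18.8% and 0%. In AOS-FMT against busulfan 8 members (25.0%) were higher and 0 lower, beside 7.80% and 5.85%. In control-FMT against busulfan 0 members were higher and 0 lower, beside 1.76% and 0.890%. In AOS-FMT against control-FMT, Pdia6, Atf4 and Ppp1r15a were higher and 0 lower, beside 3.88% and 2.35%. In control-FMT against control, Pdia6 and Xbp1 were lower and 0 higher, beside 3.74% and 4.46%. In AOS-FMT against control, Ppp1r15a was higher and Ddit3 lower, beside 5.43% and 3.44%.

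The members' median log2 fold change was -0.13 in busulfan against control, where that of all genes was -0.01, and 0.18 in AOS-FMT against busulfan, where that of all genes was 0.00. In busulfan, 24 of 32 members lay below 0, as did 52.3% of all genes. In AOS-FMT against busulfan 24 of 32 lay above 0, as did 50.7% of all genes. In control-FMT against busulfan the median was 0.05, and in AOS-FMT against control 0.02. In AOS-FMT against control-FMT it was 0.10, with 26 of 32 members above 0 beside 50.6% of all genes. In control-FMT against control it was -0.07, with 25 of 32 below 0 beside 52.6%. The busulfan and control libraries did not overlap for 10 members lower and 2 higher in busulfan, beside 6.38% and 7.74% of all genes. The AOS-FMT and busulfan libraries did not overlap for 8 members higher and 1 lower, Ddit3, beside 10.3% and 10.9%. Without scaling beyond library size the median in AOS-FMT against busulfan was 0.31, while that of all genes moved from 0.00 to 0.14. The median was 0.12 with fibroblast markers or summed atrial markers as a covariate and 0.07 with log2 atrial markers, and the 8 members higher became 2 with fibroblast, 4 with summed atrial and 5 with log2 atrial markers, beside 2.38%, 2.13% and 2.13% of all genes. The fibroblast score, the mean log2 CPM of the 10 markers, was 7.3 to 7.75 in busulfan and 7.78 to 8.75 in AOS-FMT. It narrowly separated these groups, so fibroblast markers and treatment cannot be told apart there. The liver score was 5.74 in AOS-FMT replicate 3 and -1.38 to 2.86 in the other libraries, so that library weighs heavily in its fit. The liver score also separated control (-1.38 to -0.496) from every other group, and AOS-FMT (2.6 to 5.74) from every other group. Liver markers and treatment therefore cannot be told apart in comparisons with control or AOS-FMT. With liver markers as a covariate the 6 members lower in busulfan became 0, beside 1.91% of all genes. In that fit Manf was at -0.28 ± 0.16, Pdia6 at -0.28 ± 0.14, Xbp1 at -0.27 ± 0.14, Pdia4 at -0.29 ± 0.19, Dnajc3 at -0.22 ± 0.15 and Pdia3 at -0.14 ± 0.15.

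Markers of several cell types differed in the same comparisons. The median of the 10 fibroblast markers was -0.59 in busulfan against control and 0.72 in AOS-FMT against busulfan, and that of the 10 macrophage markers was -0.48 and 0.55. The 11 cardiomyocyte markers were all above 0 in the first (median 0.18) and all below 0 in the second (median -0.46). The 13 hepatocyte markers had medians of 2.44 and 3.15. In the first, 10 lay above 0 and 3 below, down to -2.29, and their summed CPM overlapped between the groups. In the second all 13 lay above 0. Beyond the covariate fits above, the part of these cell types in the members' values was not tested.

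Within groups, members did not follow Hspa5 closely. After group means were removed from log2 CPM, 1 of 31 members reached a Pearson r of 0.7 with Hspa5 over the 12 libraries, as did 0.882% of all genes. That member was Canx, with r = 0.77 (exact within-group permutation p = 0.0694, 0.955 adjusted over all genes) and Spearman rho = 0.66 (exact p = 0.0934, adjusted 0.956). Dnajc3 had r = 0.60 (exact permutation p = 0.0278) and rho = 0.80 (exact p = 0.00849), and Hyou1 had r = 0.60 (exact p = 0.0239) and rho = 0.71 (exact p = 0.0139), with adjusted values of 0.955 and 0.956 for both genes. An exact permutation p of r under 0.05 was reached by these 2 members and by 3.87% of all genes. Ppp1r15a had the lowest r, -0.60 (exact permutation p = 0.129, adjusted 0.955). Without AOS-FMT replicates 1 and 3, the libraries farthest from the median of Hspa5, r was 0.53 for Canx and 0.45 for Dnajc3. It was 0.50 for Hyou1 and -0.45 for Ppp1r15a. Then 0 members reached 0.7, beside 2.34% of all genes. The members' median r was 0.09, beside -0.02 for all genes, with 18 of 31 above 0.

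**Figure D5:**
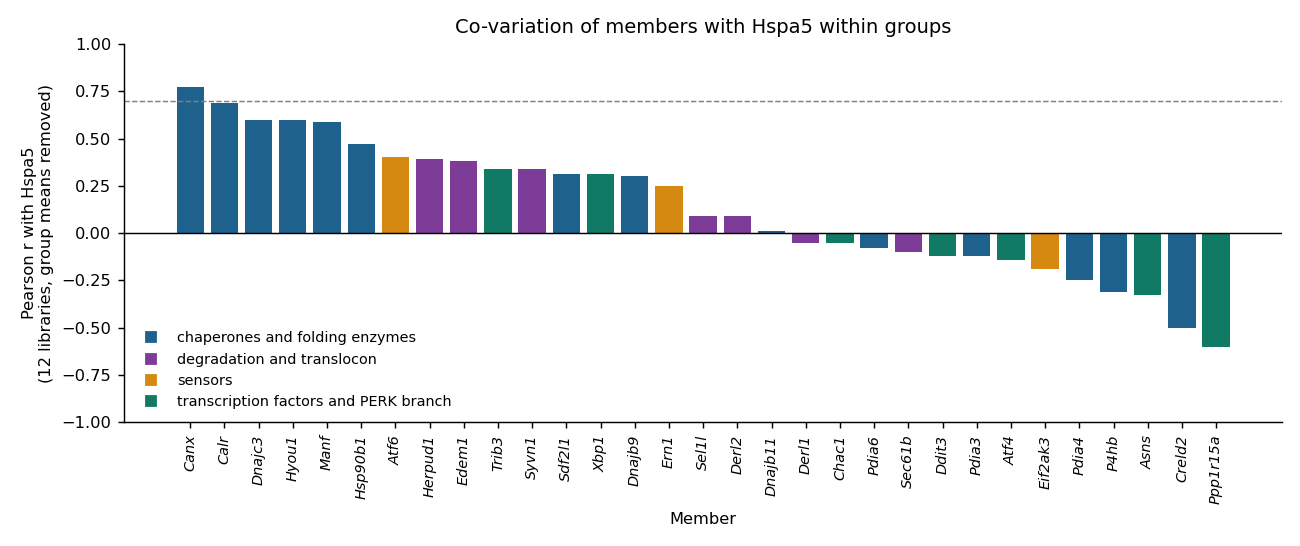
Pearson r of each of 31 members with Hspa5 over 12 libraries after group means were removed from log2 CPM, coloured by role; the dashed line marks 0.7. Canx, at 0.77, is the member above the line, and 18 of 31 bars lie above 0.

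Of 153 further genes of the pathway that were tested, in 6 lists, edgeR called Atf3 alone. Atf3, a stress-induced transcription factor downstream of ATF4 and of other signals, had 6.76, 7.60 and 8.49 CPM in control, 4.61, 4.07 and 8.29 in busulfan, 6.58, 12.7 and 7.94 in control-FMT, and 25.4, 26.3 and 24.6 in AOS-FMT. Each AOS-FMT library lay above every other library. Atf3 rose by 2.17 ± 0.27 in AOS-FMT against busulfan (edgeR adjusted p = 0.0189) and by 1.74 ± 0.26 against control (0.0240). It was at 1.49 ± 0.25 against control-FMT (0.137), where DESeq2 (adjusted p = 0.000206), limma-voom (0.0199) and edgeR without busulfan replicate 3 (0.0314) called it. The call against busulfan was lost without busulfan replicate 1 (2.04, adjusted p = 0.249) or replicate 2 (1.97, 0.137), and in a fit of the 6 libraries compared (0.0625). It was also lost with the atrial, liver or fibroblast covariates (1.96 to 2.45, adjusted p from 0.164 to 0.471). Liver markers separated AOS-FMT from busulfan and from control, and fibroblast markers separated it from busulfan. Fits with these covariates cannot tell markers from treatment there. The call against control was lost without any 1 control library (1.65 to 1.81, adjusted p from 0.0623 to 0.158), without AOS-FMT replicate 2 or 3 (0.0677 and 0.0627) and with the liver covariate (2.31, adjusted p = 1).

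The counts of these lists at an unadjusted p under 0.05 stand beside 5.54% of all genes higher and 5.78% lower in busulfan against control, and 7.80% and 5.85% in AOS-FMT against busulfan. Among the 41 tested ATF4 targets, 5 were higher and 3 lower in busulfan against control at that level, and 5 and 0 in AOS-FMT against busulfan. The median of this list was -0.06 in the first, with 18 above 0 and 23 below. It was 0.05 in the second, with 25 above 0 and 16 below. The 3 targets lower in busulfan at that level were Nupr1 (-1.02 ± 0.41), Mthfd2 (-0.64 ± 0.23) and Tars (-0.33 ± 0.12). Their edgeR adjusted p was 0.396, 0.351 and 0.341. Gdf15, a stress-induced cytokine, was at 1.23 ± 0.27 in busulfan against control (edgeR adjusted p = 0.203). It was at 1.26 ± 0.27 in control-FMT against control (0.150). The main fit did not call Gdf15, while some of the alternatives did. Atf5, a relative of ATF4, was at 0.41 ± 0.12 in busulfan against control (0.295) and at -0.33 ± 0.12 in control-FMT against busulfan (0.999). Sesn2, a stress-induced sestrin, was at 0.69 ± 0.25 in busulfan against control (0.351) and at 0.97 ± 0.25 in AOS-FMT against control (0.214). Its levels were 3.77, 4.33 and 3.17 CPM in control and 6.04, 6.38 and 7.42 CPM in control-FMT. Of 30 tested further chaperones and disulfide enzymes, 2 were higher and 3 lower in busulfan against control, and 3 and 0 in AOS-FMT against busulfan, with medians of -0.12 and 0.13. Txndc12, an ER thioredoxin, was at -0.44 ± 0.13 in the first (0.299) and Dnajb12, a membrane-bound co-chaperone, at 0.31 ± 0.09 (0.294). In control-FMT against busulfan Pdia5, a disulfide isomerase, was at 0.60 ± 0.22 and Sil1, an exchange factor of BiP, at -0.38 ± 0.11 (0.999 for both). In busulfan against control Pdia5 was at -0.47 ± 0.22 (0.446) and Sil1 at 0.31 ± 0.11 (0.351).

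Of 27 further degradation genes, 0 were higher and 3 lower in busulfan against control, and 4 and 1 in AOS-FMT against busulfan. Selenos, a selenoprotein of the degradation complex, was at -0.40 ± 0.12 in the first (edgeR adjusted p = 0.295). Of 24 translocon and signal peptidase genes 0 were higher and 1 lower in busulfan, and 1 and 0 in AOS-FMT against busulfan. Sec11c, a signal peptidase subunit, was at -0.54 ± 0.16 in control-FMT against control (0.400), and Sec61g, a translocon subunit, at -0.67 ± 0.21 (0.431). Among 17 relatives of the sensors 0 and 2 were higher and lower in busulfan, and 0 and 2 in AOS-FMT against busulfan. In the latter, Mapk8, the JNK1 kinase activated downstream of IRE1, was at -0.33 ± 0.11 (0.296), and Map3k5, the ASK1 kinase of that route, at -0.42 ± 0.17 (0.310). Among 14 genes for eIF2 and its kinases 0 and 1 were higher and lower in busulfan, and 1 and 0 in AOS-FMT against busulfan. Ppp1r15b, the constitutive partner of the eIF2 phosphatase, was at 0.35 ± 0.10 there (0.279), and Eif2b3, an eIF2B subunit, was at -0.42 ± 0.14 in AOS-FMT against control (0.382).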

How the data were processed

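RNA-seq of mouse hearts, 12 libraries in 4 groups of 3, was compared. Per the file headers, the deposited table holds estimated counts, and 94.7% to 95.3% of the values in a library were whole numbers to within 1e-09. It holds TPM, deposited by the authors and used here for levels between genes, and the authors' FPKM, which was not used. Bowtie 0.12.2 and the build mm10 come from the submitters' processing notes. Neither counter nor annotation is given in the sources used here. A total of 0 value columns had no mapped sample.

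Estimated counts were rounded, filtered with filterByExpr and scaled by TMM (factors 0.908 to 1.08). All 12 libraries entered one robust quasi-likelihood fit in edgeR 4.0.16 (R 4.3.3), with group as the term. Calls needed a p under 0.05 after Benjamini-Hochberg adjustment over the 13489 genes. The common biological coefficient of variation was 18.6%. Library totals of 11333650 to 14335688 set the counting precision. Co-variation used log2 CPM with a prior count of 2 and 1296 within-group arrangements, two-sided, whose smallest p is 0.000772. DESeq2 1.42.0, limma-voom 3.58.1, other scalings and filters, marker covariates, a replicate block and leaving out each library were the alternatives.

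The members and lists were chosen with earlier results of these data known. Values in every library are given for Hspa5, Xbp1, Atf4, Ddit3 and the 3 sensors, and for at most the 4 smallest unadjusted edgeR p under 0.05 in each direction and comparison. Further pathway genes named are Atf3, Gdf15 and at most the 2 smallest such p in each direction and comparison. The 3 ATF4 targets lower in busulfan against control are named beside them, with no alternatives given. Counts at an unadjusted p under 0.05 and the fibroblast covariate were added after seeing the data. Promoters and gene spans are from RefSeq, GRCm38.p6.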

Additional observations from a re-analysis of the deposited data

How the results depend on the processing

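No member was called by edgeR under any scaling, filter, covariate or left-out library, and limma-voom called 0. DESeq2 called 3 members in busulfan against control and 1 in AOS-FMT against busulfan. With the liver covariate the members' median was -0.08 in busulfan against control, 0.25 in AOS-FMT against busulfan, 0.18 in AOS-FMT against control-FMT, -0.01 in control-FMT against control and 0.15 in AOS-FMT against control. Without scaling beyond library size it was 0.13 in control-FMT against busulfan, 0.31, 0.16 and 0.12 in AOS-FMT against busulfan, control-FMT and control, where the median of all genes was 0.08, 0.14, 0.05 and 0.09. In AOS-FMT against busulfan it was 0.12 with the linear atrial covariate, 0.07 with the log2 one and 0.12 with the fibroblast covariate. Leaving out 1 library at a time gave 0.13 to 0.22 in AOS-FMT against busulfan and -0.03 to 0.08 in AOS-FMT against control. The members lower at an unadjusted p under 0.05 in busulfan against control were 0 with the liver covariate, beside 1.91% of all genes. That covariate separated control, and also AOS-FMT, from every other group. The fibroblast covariate separated busulfan from AOS-FMT. In those comparisons neither covariate can be told apart from treatment. The members higher in AOS-FMT against busulfan at that level were 16 without scaling (15.5% of all genes), 4 and 5 with the linear and log2 atrial covariates (2.13% for both), 2 with the fibroblast covariate (2.38%) and 5 to 8 with a library left out, 5 being without busulfan replicate 3 (7.16%). The members following Hspa5 were 2 by Spearman rho (1.12% of all genes), 0 without the 2 farthest libraries (2.34%) and 1 to 3 with a library left out (0.986% to 5.59%, the last without AOS-FMT replicate 3, where 1 of 31 members reached it). The cause of these differences was not tested. Of 345 values of named members under the alternatives 341 kept their direction and side of the threshold, and 4, all from DESeq2, passed it. Of 552 such values of the further pathway genes 534 kept both, 13, all of Atf3, lost the call, and 5 gained one (Gdf15 and Atf3).

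Correlations of the deviations of same-numbered replicates ran from -0.161 to 0.454 (median 0.117) over 18 pairs, beside -0.444 to 0.342 (median -0.043) over 36 other pairs. They were over 0.1 in 6 of 6 pairs numbered 1 (0.119 to 0.454), 1 of 6 numbered 2 and 3 of 6 numbered 3, so the numbers were not taken to pair the samples, and 4 of 12 libraries correlated best with one of their own number. A replicate block gave 0 members called in each comparison, medians of -0.13 in busulfan against control and 0.17 in AOS-FMT against busulfan, and 6 and 8 members at an unadjusted p under 0.05. Depth limits Derl3, which was not tested, and Chac1, with 8 to 62 counts a library.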
